A study of Mus musculus with 908 samples.

Results

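The collagen genes are the 43 rows, of 46517 gene rows in the expression tables, whose symbol has the form of a collagen chain (Col, a type number, a, a chain number). Col17a1, a transmembrane collagen of basal keratinocytes, was left out by the rule. Collagens are triple-helical proteins of the extracellular matrix. Types I, III and V form fibrils, type VI forms beaded filaments, type IV forms the network of basement membranes, and type VII forms the anchoring fibrils that tie the epidermal basement membrane to the dermis. In skin, fibroblasts make most of the fibrillar and type VI chains, whereas keratinocytes are an important source of type VII and of basement membrane collagens. The 43 rows comprise 11 fibrillar chains, 6 type IV chains, 6 type VI chains, 9 fibril-associated chains (FACIT), 3 other network chains, 3 transmembrane chains, 2 multiplexins, 1 anchoring fibril chain and 2 others. In total, 28 of them reached a mean of 1 TPM (a transcript level scaled for length and for the total of the library) in at least 1 of the 5 gates compared. The other 15 stayed below that mean in every gate and were detected in at most 14 of the cells compared each, and 4 of those 15 in no cell.

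The cells were single cells sorted from mouse skin squamous cell carcinomas and sequenced with a full-length protocol into 1 library each. Tumours before therapy came from mice with the alleles TRE-HrasG12V and SBE-mCherry-PGK-rtTA3, in which an inducible mutant Hras drives the tumour and mCherry reports SMAD-dependent TGF-beta signalling. Tumours after adoptive T cell transfer came from mice with TRE-OVA, TRE-HrasG12V and PGK-rtTA3P2AmCherry, where mCherry comes with the rtTA3 transgene under the PGK promoter and is no TGF-beta reporter. All mice were between postnatal days 60 and 90 and of mixed sex. Every gate excluded cells with surface CD45, CD117, CD140a or CD31, the markers of leukocytes, of melanocytes and mast cells, of fibroblasts and of endothelium. Before therapy there were 4 gates. Reporter-positive cells (integrin α6+, mCherry+, CD34+, CD44+) gave 73 cells on the plate CSC1 and 32 on CSC2. CD44+ cells without the reporter (α6+, mCherry-, CD34-, CD44+) gave 15 cells. CD44-negative α6+ cells (α6+, mCherry-, CD34-, CD44-) gave 91 cells, and α6-negative cells (α6-, mCherry-, CD34-, CD44-) gave 43 cells. After transfer, sorted mCherry+ cells gave 87 cells on the plate OT2 and 90 on OT_B. Shares of reporter-positive cells and of cells after transfer are over both plates unless 1 is named. Genotype, mCherry construct, sorting gate and therapy all differ between the cells before and after transfer, so the comparison between them cannot tell these apart. The gates before therapy were set on integrin α6, CD34 and CD44 as well as on mCherry. No animal is named for any cell. Each gate was therefore treated as 1 sample, with no test between gates, and every interval below is an exact Clopper-Pearson 95% interval that covers counting error only. For a count of 0 the limit given is 3 cells of the total.

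Facts of the libraries that touch these results come first. Kept libraries had at least 2000 detected genes, with plate medians from 5521 genes (α6-negative) to 7769 genes (CSC1) on the plates compared. Spike-in RNA took a median of 2.78% of TPM in the α6-negative plate and at most 0.615% elsewhere. Libraries of the plates OT_C and OT_D are labelled as after therapy, but 71 of 73 libraries of CSC1 had their best whole-profile match on OT_C. On OT_D lay the best match of 31 of 32 libraries of CSC2 and of 14 of 15 from the CD44+ plate. The median correlation of log2(TPM + 1) with the best match was 0.941, 0.935 and 0.946. Libraries that were each other's best match formed 71, 29 and 14 pairs, and all of these pairs shared the well name. OT_C and OT_D, and likewise OT1 and OT_A, which match wells of OT_B and OT2, were left out so that a well repeated on another plate entered once. A pair of near-identical wells remained within CSC1 (r = 0.938), the CD44+ plate (0.941) and the α6-negative plate (0.918). Whether such a pair holds the same cell was not tested. Keratinocyte identity was checked with Dsp, which encodes desmoplakin of the desmosome. All cells of the CD44-negative α6+ gate and of the gate after transfer had Dsp, and the 1 reporter-positive cell without it had Krt5 at 1449 TPM and Krt14 at 10162 TPM, the keratins of basal keratinocytes. By contrast, 3 of 15 cells in the CD44+ gate and 15 of 43 in the α6-negative gate had no Dsp, with the nearest cells above the limit at 13.5 and 2.17 TPM. Both gates are given with and without those cells. The near-identical α6-negative wells are both among the 15 cells without Dsp, with collagen sums of 25973 and 25876 TPM.

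Over all cells of a gate, the sum of the 43 collagen genes averaged 251.4 TPM in reporter-positive cells, 870 TPM in CD44+ cells, 140 TPM in CD44-negative α6+ cells, 5738 TPM in α6-negative cells and 85.03 TPM after transfer. TPM is scaled per transcript length, so these sums and the levels below can be set side by side between genes. The sum was made up of different chains in different gates. Col7a1 and Col18a1 together made up 85.3% of it in reporter-positive cells, 71.3% in CD44-negative α6+ cells and 83.7% after transfer. In α6-negative cells they made up 6.51%, and Col1a1 (26.8%) and Col3a1 (26%) led instead. In CD44+ cells Col6a3 led with 18%, and the 3 cells without Dsp held 90.9% of the gate's collagen sum. With those 3 cells left out, the CD44+ sum averaged 98.8 TPM, and Col7a1 and Col18a1 made up 62.6% of it. The 28 α6-negative cells with Dsp averaged 1320 TPM, led by Col3a1 (37.6%) and Col1a1 (25.4%), with Col7a1 and Col18a1 at 8.59%; nearly all of that came from 3 cells described below. Types VII and XVIII thus made up most of the collagen sum in the α6+ gates with Dsp and after transfer. Type VII was not limited to cells with Dsp: Col7a1 had its highest mean, 772 TPM, in the 15 α6-negative cells without Dsp, where 12 cells had it at up to 2822 TPM.

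**Figure D1:**
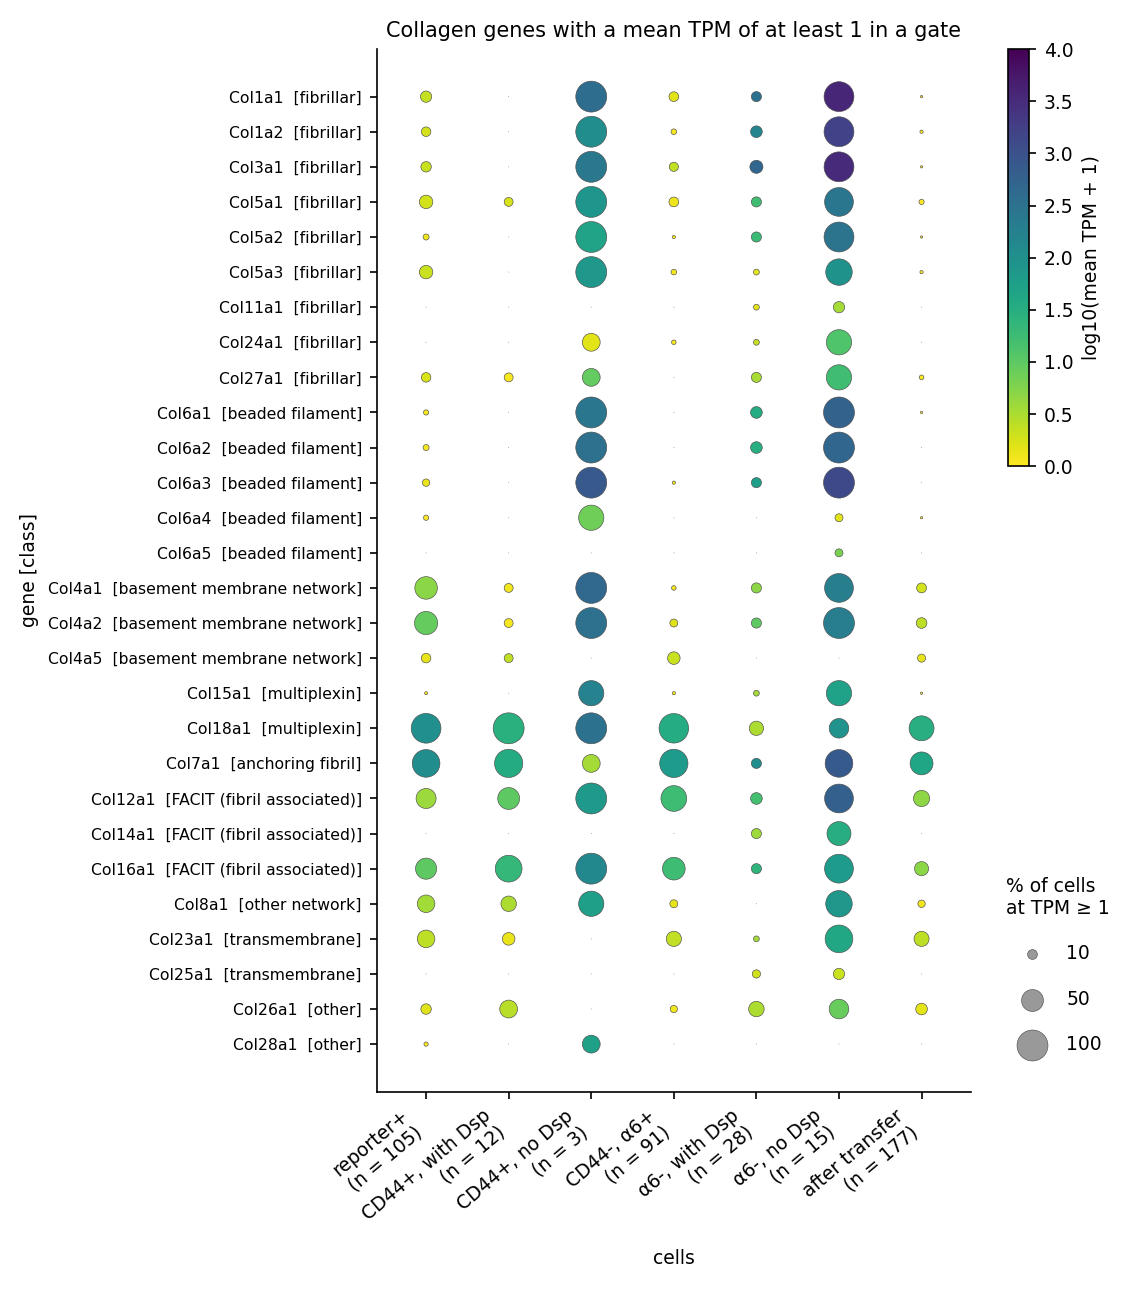
Share of cells with each collagen transcript (point area, percent of cells at TPM of at least 1; a point too small to see stands for no detection) and its mean level (colour, log10 of mean TPM + 1) for the 28 genes that reached a mean of 1 TPM in a gate, with the CD44+ and α6-negative gates split by Dsp. Col7a1 and Col18a1 are present in most cells of every column of α6+ cells with Dsp, whereas Col1a1 to Col6a3 are concentrated in the 3 CD44+ cells and 15 α6-negative cells without Dsp.

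The fibrillar chains of types I and III were the most abundant collagen transcripts of the series and were found in a minority of the α6-negative cells. Col1a1 and Col1a2 encode the chains of type I collagen, the main fibril of dermis, and Col3a1 encodes that of type III, its companion in soft tissue. Col1a1 had a mean of 1536 TPM over the 43 α6-negative cells, where its median was 0 and its highest value 8316 TPM. It was detected in 14 of 15 of these cells without Dsp (93.3%, interval 68.1 to 99.8%) at a mean of 3776 TPM, and in 3 of 28 with Dsp (10.7%, 2.27 to 28.2%). Col3a1 followed the same split, with a mean of 3354 TPM and 14 of 15 cells without Dsp against 495.9 TPM and 5 of 28 cells with it. Col1a1 and Col1a2 were detected together in 17 α6-negative cells, and no α6-negative cell had Col1a1 without Col1a2. Their log2(TPM + 1) values had r = 0.99 over the 43 cells, a description of cells from 1 plate that fall into a high and a low group. Within the 15 cells without Dsp r was 0.95.

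The RefSeq promoter windows (GRCm38.p6, 250 bases before to 50 bases after the annotated start) of Col1a2 and Col3a1 are printed here because both transcripts were abundant in the α6-negative cells without Dsp. Windows were found for 34 of the 43 genes, 37 windows in all. Capitals mark every match, on either strand, to the letters TATAAA for the TATA box, CCAAT for the box of that name, GGGCGG for the GC box, CAGACA for an element bound by SMAD proteins, and TGANTCA for the AP-1 site.
Col1a2 promoter window, chr6:4505368-4505667, plus strand: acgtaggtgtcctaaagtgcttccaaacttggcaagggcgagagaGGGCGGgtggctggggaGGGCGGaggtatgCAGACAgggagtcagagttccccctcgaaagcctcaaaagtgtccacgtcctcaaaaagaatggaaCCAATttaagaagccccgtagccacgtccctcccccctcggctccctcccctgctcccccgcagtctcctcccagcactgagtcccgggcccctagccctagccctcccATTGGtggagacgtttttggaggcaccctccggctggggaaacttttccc
Col3a1 promoter window, chr1:45311288-45311587, plus strand: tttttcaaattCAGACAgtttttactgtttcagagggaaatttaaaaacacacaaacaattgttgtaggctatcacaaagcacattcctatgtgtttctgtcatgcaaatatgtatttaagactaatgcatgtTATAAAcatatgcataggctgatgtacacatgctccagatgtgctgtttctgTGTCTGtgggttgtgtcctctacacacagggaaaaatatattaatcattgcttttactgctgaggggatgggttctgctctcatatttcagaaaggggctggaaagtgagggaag
The Col1a2 window holds 5 matches and the Col3a1 window 3. The Col3a1 window has TATAAA at position -117 from the annotated start and CAGACA at -239 and, on the opposite strand, at -65. The Col1a2 window has CAGACA at -175 and GGGCGG at -205 and -188. Among the collagen windows, GGGCGG occurs in 62.2% against 35.7% of all 32851 RefSeq windows of this length. TATAAA occurs in 10.8% against 13.6%, CCAAT in 32.4% against 37.4%, CAGACA in 24.3% against 21%, and TGANTCA in 2.7% against 7.81%. A match is a run of letters and was not tested as a binding site.

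Type V and type VI chains had the same distribution. Type V collagen is incorporated into type I fibrils and limits their diameter, and type VI forms filaments around cells from the chains of Col6a1, Col6a2 and Col6a3. In α6-negative cells without Dsp, Col6a3 averaged 1332 TPM, Col6a1 570 TPM and Col6a2 493.5 TPM, and each was detected in 15 of 15 cells. In those with Dsp the means were 58.9, 33.7 and 30.6 TPM, from 3, 4 and 4 of 28 cells. Col5a1 averaged 265.5 TPM and Col5a2 300.9 TPM without Dsp, against 15.6 and 17.6 TPM with it. Of 8 chains of types I, III, V and VI (Col1a1, Col1a2, Col3a1, Col5a1, Col5a2, Col6a1, Col6a2 and Col6a3), at least 4 were detected in 14 of 15 α6-negative cells without Dsp and in 4 of 28 with Dsp. The same held for 4 reporter-positive cells, for 0 of the 91 CD44-negative α6+ cells and for 1 cell after transfer. None of these 8 chains was detected in 63 reporter-positive cells, 66 CD44-negative α6+ cells and 170 cells after transfer, and at most 6, 2 and 5 of them were found in a single cell. The sum of the 11 fibrillar chains in reporter-positive cells had a median of 1.4 TPM and a highest value of 86.1 TPM. In reporter-positive cells Col1a1 was detected in 14 cells at a median of 3.77 TPM among them, and Col3a1 in 12.

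**Figure D2:**
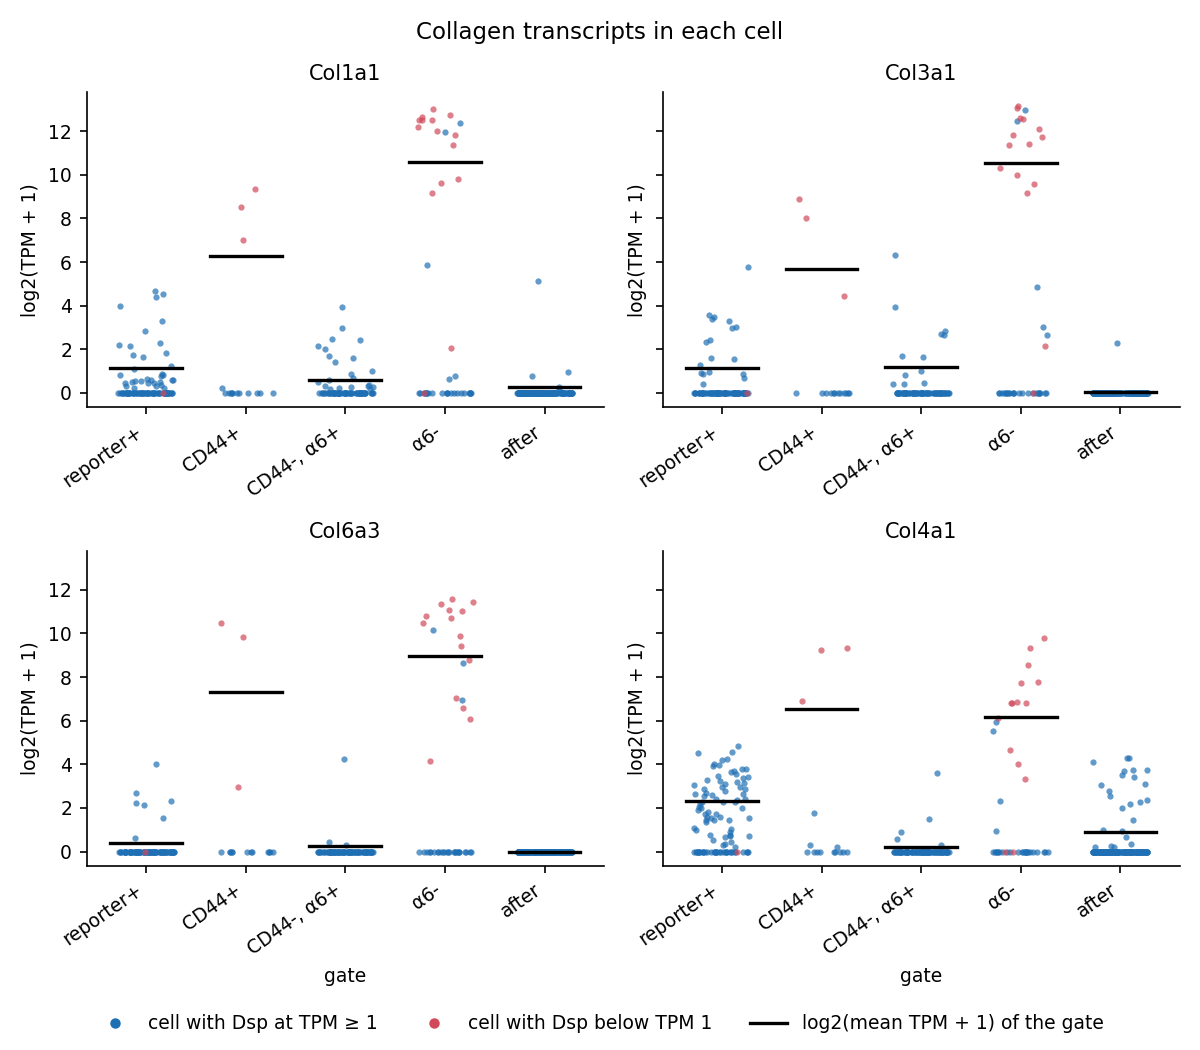
Col1a1, Col3a1, Col6a3 and Col4a1 in each cell, as log2(TPM + 1), by gate; points are cells, coloured by whether Dsp reached 1 TPM, and the bar is log2(mean TPM + 1). In the CD44+ gate 3 cells without Dsp carry Col1a1, Col3a1 and Col6a3 alone, and only Col4a1 is also spread over the reporter-positive cells (56 cells).

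Within the α6-negative gate, 24 of 25 collagen genes tested (mean of at least 1 TPM in either set) were at least 2-fold higher in cells without Dsp than in cells with it and 0 were lower, where 29.6% of all genes tested were higher and 25.4% lower. Fold changes here and below are log2((mean TPM + 1)/(mean TPM + 1)). A gene with a mean below 1 TPM in 1 set passes the filter only through the other set. It can then be called only as higher in that other set. This holds for collagens and for all genes, here and below. The median over the 25 collagens was 3.54, against 0.12 over all genes tested. By class, 9 of 9 fibrillar, 4 of 4 type VI and 3 of 3 FACIT genes tested were higher. Apart from the type I, III, V and VI chains already given, which are not ranked here, the widest differences were in Col8a1, a short-chain network collagen, which averaged 75.7 TPM without Dsp and was listed at 0 with it, Col5a3 (90.9 against 0.454 TPM), Col12a1 (613 against 14.4 TPM), Col4a1 (193.4 against 3.95 TPM) and Col18a1 (87.2 against 2.10 TPM). Col12a1 encodes a FACIT chain that binds the surface of type I fibrils, and it was detected in 13 of 15 cells without Dsp. Col14a1, another FACIT chain, Col15a1, a basement membrane multiplexin, Col23a1, a transmembrane collagen, and Col24a1 and Col27a1, minor fibrillar chains, had means of 31.7, 48.1, 41, 11.6 and 15.6 TPM without Dsp and of 1.18 to 2.79 TPM with it.

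Defining markers of stromal cells moved with these collagens. The sort excluded surface CD140a, yet Pdgfra, the gene of CD140a, was detected in 13 of 15 α6-negative cells without Dsp at a median of 83.7 TPM. Pdgfrb, expressed by pericytes and fibroblasts, was found in all 15, at 90.2 to 421.1 TPM. The 10 fibroblast markers of the list (no collagens among them) summed to a median of 648 TPM in these cells, from 170.8 to 1935 TPM, and to a median of 0.875 TPM in α6-negative cells with Dsp. The 10 markers of pericytes or smooth muscle summed to a median of 506.4 TPM, from 99.5 to 3996 TPM, and 13 of the 15 cells had at least 3 of them. The endothelial list summed to at most 1.74 TPM and Ptprc, the gene of CD45, was at 0 in all 15. In 2 of the 15 cells Rgs5, a pericyte marker, stood at 1789 and 1244 TPM with Pdgfra at 0. Fewer transcripts of keratinocyte markers went with this: Krt14 was detected in 2 of the 15 cells. What share of the collagen transcripts came from which of these cell types was not tested.

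The collagens found in α6-negative cells with Dsp came mostly from 3 of the 4 cells with Dsp between 1 and 50 TPM. The fourth, with Dsp at 28.3 TPM, had no collagen. The 3 had Dsp at 2.17, 6.71 and 48.98 TPM, held 18, 14 and 17 collagen genes, and had Pdgfra at 157.6, 19.6 and 91.7 TPM. They summed to 16921, 3255 and 16276 TPM of collagen transcripts. A limit of 50 TPM of Dsp, chosen after these values were seen, leaves 24 cells. In those 24, Col1a1 averaged 2.43 TPM (1 cell), Col6a3 was not detected, and Pdgfra was detected in 1 cell. The most often detected collagen among these 24 cells was Col26a1, whose product is an extracellular matrix protein with short collagen domains, in 7 cells at up to 31.4 TPM, followed by Col18a1 in 4.

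**Figure D3:**
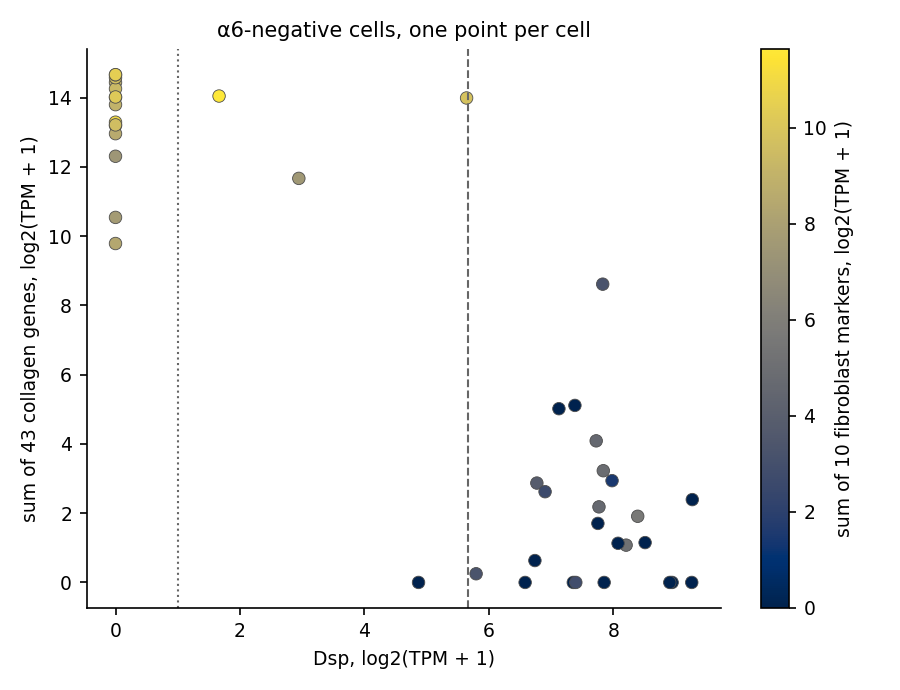
Sum of the 43 collagen genes against Dsp in the 43 α6-negative cells, both as log2(TPM + 1), coloured by the sum of 10 fibroblast markers; the dotted line is the Dsp limit of 1 TPM and the dashed line 50 TPM. All 15 cells without Dsp and 3 cells below the dashed line have collagen sums of 883 TPM or more together with fibroblast markers, and the remaining 25 cells lie lower.

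In the CD44+ gate the same chains came from 3 cells. Col1a1 was 363.5, 655 and 127.4 TPM in the 3 cells without Dsp and below 1 TPM in the other 12. Col6a3 was 907, 1440 and 6.84 TPM and Col4a1 612, 647 and 120 TPM in the same order of cells. The first 2 of them had Rgs5 at 1468 and 1098 TPM and Acta2, of smooth muscle actin, at 438.4 and 1512 TPM, with Pdgfra at 0. The third had Sox10, a transcription factor of Schwann cells and melanocytes, at 181.1 TPM and no Rgs5, and its collagens differed from those of the first 2: Col28a1, at 155.03 TPM, was found in this cell alone of the gate, Col8a1 was 164.7 TPM and Col16a1 360.9 TPM. Col15a1 was 299.3 and 226.8 TPM in the first 2 cells and 0 in the third.

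CD44+ cells over CD44-negative α6+ cells therefore had 18 of 23 collagens tested at least 2-fold higher and 1 lower (Col7a1, log2 fold -1.20), where 16.8% of all genes were higher and 6.18% lower. Higher genes with means below 1 TPM in CD44-negative α6+ cells, Col4a1, Col4a2 and Col8a1 among them, passed the filter only through the CD44+ gate. They could not have been called lower. With only cells with Dsp, 2 of 9 collagens tested were higher (Col8a1 and Col26a1) and 1 lower (Col3a1), against 11.2% and 8.54% of all genes. The 15 with the widest differences ran from Col6a3 (log2 fold 7.04), Col4a1 (6.33), Col6a2 (6.05), Col6a1 (5.78), Col1a1 (5.67), Col4a2 (5.46) and Col15a1 (5.06) through Col3a1 (4.46), Col1a2 (4.41), Col5a1 (3.77) and Col5a3 (3.69) to Col28a1 (3.5), Col8a1 (3.33), Col5a2 (3.33) and Col27a1 (1.41). Among the other higher genes were Col16a1 and Col18a1, found in most cells of both gates, with log2 folds of 1.35 and 1.32. Col18a1 went the other way (-0.29) with only cells with Dsp, where it averaged 27.6 TPM against 33.9 TPM.

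Reporter-positive cells over CD44+ cells gave the mirror image, with 17 of 23 collagens lower and 2 higher, where 16.5% of all genes were lower and 12.6% higher. Of the lower genes, Col1a2, Col5a1, Col5a2, Col6a1, Col6a2, Col6a3, Col6a4, Col15a1 and Col28a1 had means below 1 TPM in reporter-positive cells. They passed the filter only through the CD44+ gate and could not have been called higher. Col23a1, below, passed only through the reporter-positive gate. The 2 higher genes were Col7a1 (log2 fold 1.93 over a mean of 27.9 TPM) and Col23a1 (1.54 against 0.267 TPM, 1.0). Both rest on plate CSC1: without it the log2 folds were 0.60 and 0.24. With only cells with Dsp, 7 of 13 were higher and 2 lower, against 16.3% and 12.3% of all genes. Col4a2 then stood at 2.98 and Col4a1 at 2.03 in the direction of the reporter-positive cells, and Col1a1 at 1.13. The lower 17 in the gates as sorted included all 3 common type VI chains (log2 folds of -5.60 to -6.89) and Col12a1 and Col16a1 (-2.45 and -2.16). The CD44+ cells that remain are 12, and each share among them is known only within a wide interval: Col4a1 was detected in 1 of 12 (8.33%, 0.211 to 38.5%).

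The 4 collagens that were at least 2-fold higher in reporter-positive than in CD44-negative α6+ cells were Col4a1, Col4a2, Col18a1 and Col8a1, and 1, Col12a1, was lower, of 12 tested. Among all genes tested 9.8% were higher and 4.78% lower, and the collagens' median log2 fold was 0.63 against 0.07. Col4a1, Col4a2 and Col8a1 had means below 1 TPM in CD44-negative α6+ cells, so they could not have been called lower. All but 1 of the cells of both gates had Dsp, and no cell of either had 3 of the 10 fibroblast markers. The pericyte list, of which keratinocytes express some genes, had 3 or more markers in 26 and 6 cells, with sums of 0 to 535.1 TPM (median 22) and 0 to 327.5 TPM (median 12.2). Within it Rgs5, a defining gene, was at a mean of 0.0806 and 0.0859 TPM, whereas Mcam was at 15.5 and 1.56 TPM (46 against 6 cells). The endothelial list summed to 0 to 91.5 TPM (median 2.11) against 0 to 21 TPM (median 0), and no cell had 3 of its 6 markers. Its gene Pecam1 was at 8.04 against 1.25 TPM and was found in 54 against 10 cells. The fibroblast list summed to a median of 9.33 against 31.9 TPM. The part of these markers in the result was not tested. Among the 4 higher collagens, Col4a1 and Col4a2, whose products assemble together into the type IV network of every basement membrane, showed the widest differences. Among reporter-positive cells 56 had Col4a1 (53.3%, interval 43.3 to 63.1%), whereas in the CD44-negative α6+ gate 2 of 91 had it (2.2%, 0.267 to 7.71%). Its mean was 3.97 against 0.160 TPM (log2 fold 2.10), with a highest value of 27.9 against 11.1 TPM. Col4a2 was detected in 59 cells (56.2%, 46.2 to 65.9%) against 6 (6.59%, 2.46 to 13.8%), at 7.93 against 0.546 TPM (2.53). The other type IV chain with a mean of 1 TPM, Col4a5 on chromosome X, went the other way without reaching 2-fold, with 10 against 15 cells.

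The 2 plates of reporter-positive cells differed in type IV transcripts. Col4a1 was detected in 48 of 73 cells of CSC1 (65.8%, 53.7 to 76.5%) and 8 of 32 cells of CSC2 (25%, 11.5 to 43.4%), with means of 5.08 and 1.44 TPM. Col4a2 was detected in 49 and 10 cells, at 10.3 and 2.44 TPM. Each plate alone lay at least 2-fold above the CD44-negative α6+ gate: without CSC1 the log2 fold was 1.08 for Col4a1 and 1.15 for Col4a2, and without CSC2 it was 2.39 and 2.87. Without CSC1, 3 of 11 collagens were higher and 1 lower (12.2% and 7.06% of all genes), and without CSC2 6 of 12 were higher and 2 lower (9.69% and 5.76%). Detection also went with the number of genes detected in a cell, which can be matched in part: among cells with 6000 to 8000 detected genes, Col4a1 was detected in 26 of 58 reporter-positive cells, 0 of 69 CD44-negative α6+ cells and 11 cells after transfer (8.87%). By plate this was 25 of 48 cells on CSC1 and 1 of 10 on CSC2, and 10 of 66 on OT2 and 1 of 58 on OT_B, so at matched gene numbers the higher share rests on CSC1. In reporter-positive cells Col4a1 and Col4a2 were both detected in 51 cells, neither in 41 and only one of them in the rest. Their log2(TPM + 1) values had r = 0.80 and Spearman's rho = 0.81 over all reporter-positive cells. Within CSC1 r was 0.79 and within CSC2 0.67. The cells share plates, depth and total RNA, so these correlations are descriptions.

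The windows of these genes are printed because the 2 genes lie head to head on chromosome 8 and their transcripts were found in the same cells. GENCODE M21 places Col4a1 at chr8:11198423-11312826 on the minus strand and Col4a2 at chr8:11312805-11449287 on the plus strand. The RefSeq starts lie 21 bases apart, and the printed windows share 78 bases. Capitals mark the motifs named above.
Col4a1 promoter window, chr8:11312777-11313076, minus strand: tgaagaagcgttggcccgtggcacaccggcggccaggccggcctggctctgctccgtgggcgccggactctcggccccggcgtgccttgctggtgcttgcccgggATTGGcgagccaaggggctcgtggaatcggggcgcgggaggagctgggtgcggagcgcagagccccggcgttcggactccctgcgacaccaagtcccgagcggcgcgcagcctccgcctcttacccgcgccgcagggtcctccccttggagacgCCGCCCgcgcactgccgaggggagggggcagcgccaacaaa
Col4a2 promoter window, chr8:11312555-11312854, plus strand: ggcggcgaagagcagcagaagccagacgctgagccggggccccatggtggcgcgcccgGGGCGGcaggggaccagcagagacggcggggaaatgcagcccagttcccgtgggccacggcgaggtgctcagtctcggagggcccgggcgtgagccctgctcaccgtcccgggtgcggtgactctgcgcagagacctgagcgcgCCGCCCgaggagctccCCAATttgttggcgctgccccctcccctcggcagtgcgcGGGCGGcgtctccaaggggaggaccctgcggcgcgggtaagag
The Col4a1 window has a CCAAT match on the opposite strand at -145 and 1 GC box match at 9. In the Col4a2 window the GC box letters occur at -192, -48 and 7 and the CCAAT letters at -32. Neither window has a match to TATAAA or to CAGACA or to TGANTCA. The annotated genes overlap at their starts, and the counting is not stated to use strand, so reads from the overlap cannot be told apart. Col4a5 and Col4a6, a second head-to-head pair, have starts 1343 bases apart and no shared window.

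**Figure D4:**
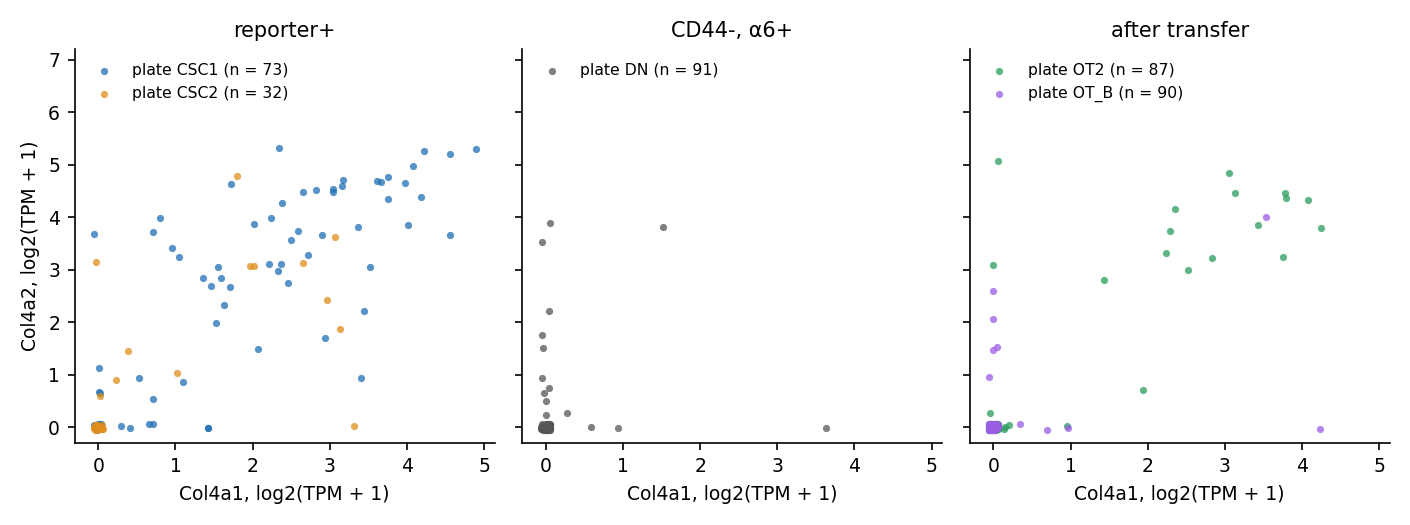
Col4a1 against Col4a2 in each cell, as log2(TPM + 1) with slight jitter, for reporter-positive cells, CD44-negative α6+ cells and cells after transfer, coloured by plate. Cells with both transcripts number 51 in the reporter-positive gate, few in the CD44-negative α6+ gate and 15 after transfer, most of the latter on OT2.

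Col18a1 and Col7a1 were the collagens found in most cells of the reporter-positive and CD44-negative α6+ gates. Col18a1 encodes a basement membrane proteoglycan collagen whose C-terminal fragment is endostatin. Its transcript was found in 92.4% of reporter-positive cells (97 cells, 85.5 to 96.7%) and in 91.2% of the CD44-negative α6+ gate (83 of 91, 83.4 to 96.1%), so the shares could not be told apart, while the mean was 105.4 against 33.9 TPM (log2 fold 1.61) and the median 68 against 19.7 TPM. By plate, CSC1 had a mean of 126.2 TPM and CSC2 57.8 TPM, with medians of 100.6 and 19.8 TPM. The median of CSC2 was that of the CD44-negative α6+ gate to within 1 TPM, and without CSC1 the log2 fold was 0.75, under 2-fold. Col7a1, which encodes the anchoring fibril chain, was detected in 84 and 76 cells and was under 2-fold apart (0.72), with a mean of 65.6 TPM in the CD44-negative α6+ gate. It too differed by plate, 137.97 TPM in CSC1 and 42.9 TPM in CSC2, which puts the CD44-negative α6+ gate between the 2 plates. Col18a1 was the highest collagen in 62 reporter-positive cells and Col7a1 in 35, whereas in CD44-negative α6+ cells Col7a1 led in 48 and Col18a1 in 24. The 2 transcripts varied together across reporter-positive cells, with r = 0.78 over both plates, 0.81 within CSC1 and 0.62 within CSC2.

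Col12a1 was the 1 collagen that was lower in reporter-positive cells. The share was 44 cells (41.9%, 32.3 to 51.9%) at a mean of 3.05 TPM and in 63 of 91 CD44-negative α6+ cells (69.2%, 58.7 to 78.5%) at 16.6 TPM (log2 fold -2.12). Both reporter-positive plates were lower, 3.56 TPM on CSC1 and 1.90 TPM on CSC2, and the difference was 2-fold or more without either (-2.60 without CSC1 and -1.95 without CSC2). Col16a1, a FACIT chain of skin, had 8.90 against 16.4 TPM and was detected in 49 cells of each gate, with overlapping intervals (36.9 to 56.7% and 43.1 to 64.4%). Col8a1 was higher in reporter-positive cells, 34 cells (32.4%, 23.6 to 42.2%) and 2.54 TPM against 6 cells (6.59%, 2.46 to 13.8%) and 0.395 TPM. Its share was 39.7% on CSC1 and 15.6% on CSC2, and without CSC1 the log2 fold was 0.26. Col23a1 was found in 34 and 22 cells at 1.54 and 1.29 TPM.

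**Figure D5:**
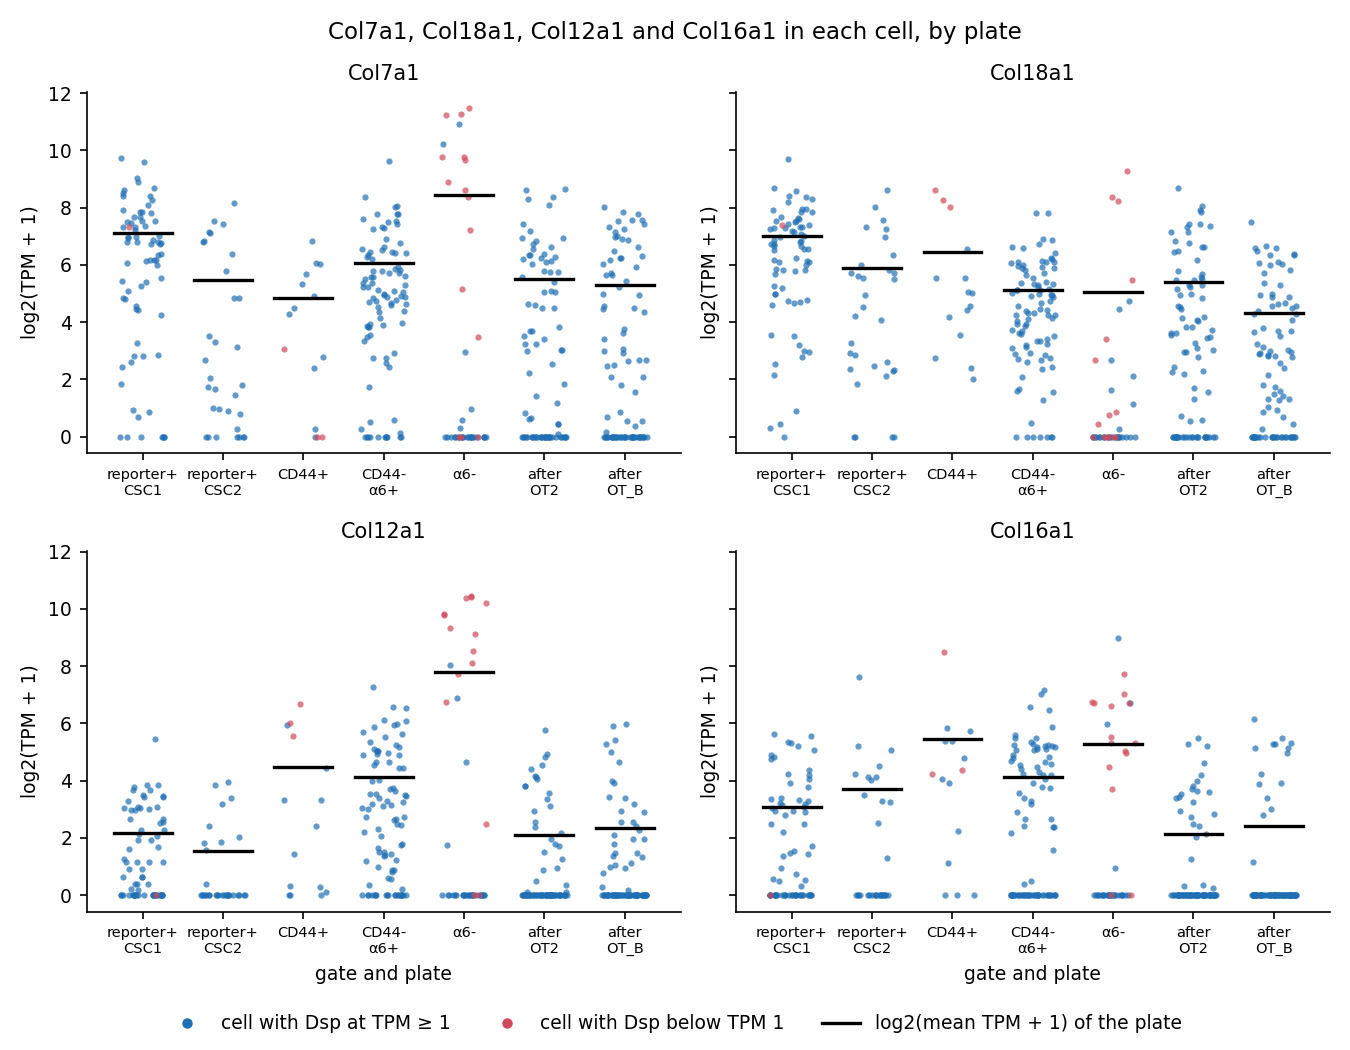
Col7a1, Col18a1, Col12a1 and Col16a1 in each cell, as log2(TPM + 1), by gate and plate; points are cells, coloured by Dsp, and the bar is log2(mean TPM + 1) of the plate. CSC1 lies above CSC2 for Col7a1 and Col18a1, the CD44-negative α6+ gate has the most cells with Col12a1 (63 of 91), and most α6-negative cells with Dsp are at 0 for all 4.

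Across the loss of integrin α6, 24 of 26 collagens tested were lower in CD44-negative α6+ cells than in α6-negative cells and 1 was higher, where 25.7% of all genes were lower and 8.66% higher. The lower genes by size were Col1a1 (log2 fold -9.98), Col3a1 (-9.34), Col1a2 (-9.22), Col6a3 (-8.71), Col6a1 (-7.78), Col6a2 (-7.58), Col5a2 (-6.85), Col5a1 (-6.35), Col4a1 (-5.94), Col4a2 (-5.68), Col5a3 (-4.80), Col8a1 (-4.30), Col15a1 (-4.17), Col14a1 (-3.80) and Col12a1 (-3.67), followed by 9 others down to Col25a1. With the 15 cells without Dsp left out, 14 of 21 were lower and 2 higher, with 20.3% and 11.7% of all genes as background. The 2 higher were Col18a1 (3.49) and Col4a5 (1.06, listed at 0 in α6-negative cells). Col7a1 was at 65.6 TPM (76 of 91 cells) against 111.3 TPM (3 of 28 cells), a log2 fold of -0.75. At the limit of 50 TPM of Dsp, which removes 2 of these 3 cells, 6 of 11 collagens were higher in CD44-negative α6+ cells and 4 lower, against 13.3% and 18.1% of all genes. The collagens led by types VII and XVIII were then much rarer in α6-negative cells: Col7a1 was detected in 1 of 24 cells at a mean of 0.348 TPM against 76 of 91 at 65.6 TPM, Col18a1 in 4 at 1.29 TPM against 83 at 33.9 TPM, Col12a1 in 1 at 0.0992 TPM against 63 at 16.6 TPM, and Col16a1 in none against 49. The α6-negative plate also had the fewest detected genes and the most spike-in RNA, and their part in these lower shares was not tested. In the same 24 cells Krt14 was detected in all and Krt5 in 10.

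After adoptive transfer, 8 of 11 collagens tested were at least 2-fold lower than in reporter-positive cells and 0 were higher, where 8.6% of all genes were lower and 3.17% higher. The median log2 fold of the 11 was -1.11 against -0.23 over all genes tested. Col4a2 (log2 fold -1.81), Col18a1 (-1.79), Col8a1 (-1.55), Col4a1 (-1.40), Col7a1 (-1.38), Col3a1 (-1.11), Col5a3 (-1.04) and Col16a1 (-1.01) were lower, and Col12a1 (0.22) and Col23a1 (-0.02) were not apart. Col8a1, Col4a1, Col3a1 and Col5a3 had means below 1 TPM after transfer. They passed the filter only through the reporter-positive cells and could not have been called higher. Col18a1 was detected in 65% of cells (57.5 to 72.0%) at 29.8 TPM and Col7a1 in 97 (54.8%, 47.2 to 62.3%) at 41.4 TPM. Col4a1 was detected in 18 cells (10.2%, 6.14 to 15.6%), 16 of 87 on OT2 and 2 of 90 on OT_B, against 56 reporter-positive cells. This result rests on plate CSC1. Against CSC2 alone 3 of 9 collagens were lower and 0 higher (11.7% and 4.63% of all genes). Of the 8 genes above Col16a1 (-1.42) was among these 3, but it stood at -0.79 without CSC2 and at -0.88 without OT2, while against CSC2 alone Col18a1 stood at -0.94, Col4a2 at -0.44, Col4a1 at -0.38 and Col7a1 at -0.05. With all 6 plates labelled as after therapy, 1 of 14 was lower and 3 higher (3.35% and 2.9% of all genes). That set adds OT_C and OT_D, whose libraries match reporter-positive and CD44+ wells, and also OT1 and OT_A. Which of these plates moved the counts was not tested.

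Against CD44-negative α6+ cells the cells after transfer differed less, with 3 of 8 collagens lower and 0 higher, where 4.71% of all genes were lower and 3.91% higher. The 3 were Col12a1 (3.71 against 16.6 TPM, log2 fold -1.90), Col16a1 (3.91 against 16.4 TPM, -1.83) and Col3a1 (0.0224 against 1.31 TPM, -1.17). Col3a1 passed the filter only through the CD44-negative α6+ cells and could not have been called higher. The 2 FACIT chains were lower on both plates after transfer, with Col12a1 at 3.32 and 4.08 TPM and Col16a1 at 3.40 and 4.39 TPM on OT2 and OT_B. Fibrillar and type VI chains were rare: Col1a1 was detected in 1 cell, Col6a1 in 1 and Col6a3 in 0, which allows a share of up to 1.69%. The fibroblast list was likewise below 3 detected markers in every cell. Cells after transfer had fewer detected genes, with medians of 6885 and 6284 on their plates against 7769 and 7575 for reporter-positive cells. Among cells with 6000 to 8000 genes, Col18a1 averaged 30.7 TPM after transfer (89 cells, 71.8%), 79.3 TPM in reporter-positive cells (53 of 58) and 32.4 TPM in CD44-negative α6+ cells (66 of 69), and Col7a1 42.3, 83.3 and 71.3 TPM. Col7a1 turned on the plate here, with 95.8 TPM in the 48 such cells of CSC1 and 23.6 TPM in the 10 of CSC2, the latter below both other gates.

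The repeat libraries show how far these calls were found again in a library with the same well name and a near-identical profile. The pairs were chosen as each other's best match over the whole profile. Libraries that matched less well were left out, so the agreement may be overstated. In 71 pairs of CSC1 and OT_C, Col4a1 was detected in 47 and 45 libraries and in both members of 44 pairs, with means of 5.19 and 5.71 TPM. Col4a2 was detected in 47 and 49, 45 of them shared, at 10.4 and 10.1 TPM. Col18a1 was detected in 67 and 69, and in both members of 67 pairs. The low fibrillar signal was less repeatable: Col1a1 was detected in 12 and 10 libraries and in both of 8 pairs, at 1.14 and 1.07 TPM. Of 14 pairs of the CD44+ plate and OT_D, Col1a1 was detected in both libraries of 3 and in 1 library only of 0, with means of 81.9 and 83.9 TPM. The collagen signal of these 3 CD44+ cells was therefore found again in their repeat libraries.

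Genes that make, cross-link, bind and degrade collagen were examined as lists chosen with earlier results known. In α6-negative cells without Dsp over those with it, 19 of 24 tested genes of collagen biosynthesis (prolyl and lysyl hydroxylases, chaperones and procollagen proteinases) were higher and 0 lower, as were 7 of 7 cross-linking genes, 10 of 12 breakdown genes and, for matrix partners, 16 of 19, with 2 lower. Of 7 collagen receptor genes tested 6 were higher and 1 lower. Loxl3, a lysyl oxidase, averaged 60 against 0.0307 TPM, Tnc, the matrix glycoprotein tenascin C, 1129 against 3.25 TPM, and Postn, the collagen-binding periostin, 937 against 17.3 TPM. The collagenase gene Mmp13 averaged 1512 TPM in 8 of 15 cells and was listed at 0 with Dsp. Collagen chains and genes of their assembly thus had higher means in the same set of cells, against the backgrounds of 29.6% higher and 25.4% lower given above. Whether single cells held both was not tested.

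Reporter-positive cells over CD44-negative α6+ cells had 6 of 10 breakdown genes higher and 2 lower, 8 of 14 matrix partner genes higher and 0 lower, and 4 of 20 biosynthesis genes higher and 3 lower, against the 9.8% and 4.78% above. Of 5 receptor genes 2 were higher and 2 lower. Both cross-linking genes tested were higher, among them Pxdn, the peroxidasin that cross-links type IV collagen, at 35.7 against 3.83 TPM and in 93 against 27 cells. Sparc, a collagen-binding glycoprotein that is needed for type IV collagen in basement membranes, had 162.5 against 31.9 TPM. Lama3, a laminin chain of the epidermal basement membrane (162.04 against 27.1 TPM), and Mmp9, which degrades type IV collagen (66.3 against 10.9 TPM), were higher as well. Some genes of the basement membrane, Col4a1, Col4a2, Col18a1, Lama3 and Pxdn, were thus higher in the reporter-positive gate. Others, such as Col4a5 and Col7a1, did not reach 2-fold, and 6 of the 14 matrix partner genes were neither higher nor lower. The Col18a1 difference rests on plate CSC1, as does the Col4a1 share at matched gene numbers. The genes of the lists were not recomputed without CSC1.

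After transfer, 11 of 13 matrix partner genes, 7 of 9 breakdown genes, 2 of 2 cross-linking genes and 6 of 19 biosynthesis genes were lower than in reporter-positive cells, where the background was 8.6%. Of the same lists 0, 0, 0 and 1 were higher, and of 5 receptor genes 2 were lower and 2 higher. The collagen result of this comparison rests on plate CSC1. The lists were not recomputed without that plate, so whether their counts rest on it too was not tested. Pxdn averaged 7.5 TPM, Sparc 31.6 TPM and Mmp13 0.895 TPM, against 35.7, 162.5 and 32 TPM. Ddr2, a receptor for fibrillar collagen, was higher after transfer, 22.6 against 1.98 TPM and in 90 against 20 cells, and also higher than in CD44-negative α6+ cells (7.40 TPM).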

How the data were processed

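The series holds 908 libraries, each made from 1 sorted tumour cell, 362 before and 546 after therapy. The values are TPM as deposited by the authors. Per the submitters' processing notes, Bowtie2 2.2.9, RSEM 1.2.30 and the mm10 build were used; the annotation behind the gene rows is not stated in the labels or headers. Read depth cannot be recovered from TPM. The 8 rows of ribosomal RNA and ribosomal repeats took a median of 66.1 to 76.4% of TPM on each plate, which compresses all other values.

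Libraries with at least 2000 gene rows (spike-in rows left out) at TPM of at least 1 were kept, 696 of 908, and the compared plates gave 431 cells. A gene was detected at TPM of at least 1. Fold changes were log2((mean TPM + 1)/(mean TPM + 1)), which understates the change of low genes. Genes with a mean of at least 1 TPM in either group were compared, and 2-fold apart was the limit. No test was run, because no animal is named and each gate is 1 sample. The calculation was tested on simulated data. Intervals are exact Clopper-Pearson 95% intervals (SciPy 1.17.1, Python). Gene positions are from GENCODE M21, where all 43 genes matched by Ensembl gene identifier, and promoter windows from RefSeq.

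Genes were named by rule: collagens with a mean of at least 1 TPM in a gate, up to 15 a direction for each comparison, and up to 8 genes of the lists for collagen biosynthesis, cross-linking, receptors, matrix partners and breakdown. The members and lists were chosen with earlier results of these data known. Alternatives concerned the pseudocount, the filter on low values, scaling, depth limits, plates, Dsp limits and near-identical wells of a plate. The last of these and the Dsp limit of 50 TPM were chosen after the data were seen.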

Additional observations from a re-analysis of the deposited data

Results flagged for a closer look

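Collagen transcripts were more frequent on 2 plates that carry the label of cells after therapy and that no comparison used. On OT_C, with 72 kept cells, detection at TPM of at least 1 was found for Col4a1 in 62.5%, Col4a2 in 69.4%, Col7a1 in 86.1%, Col8a1 in 38.9%, Col12a1 in 47.2%, Col16a1 in 52.8%, Col18a1 in 97.2% and Col23a1 in 48.6% of cells. On OT_D, with 45 kept cells, it was found for Col4a2 in 31.1%, Col8a1 in 26.7%, Col16a1 in 46.7% and Col18a1 in 95.6%. In each of these 12 cases the lower bound of the exact interval lies above the upper bound for the cells of OT2 and OT_B, and the same was true of 17 values for genes detected in under 25% of a plate's cells. It was true of 0 values on OT1 and OT_A. The share over all genes was not computed for this comparison, so these counts are not read as a result about collagens. OT_C and OT_D had medians of 7787.5 and 7246 detected genes, against 6885 on OT2 and 6284 on OT_B. Whole-profile matches place these libraries with the reporter-positive and CD44+ wells: 72 of 72 libraries of OT_C matched best on CSC1, and 44 of 45 of OT_D on CSC2 or the CD44+ plate. Libraries that were each other's best match formed 71 pairs with CSC1, 29 with CSC2 and 14 with the CD44+ plate. All of these pairs shared the well name. The higher shares on OT_C and OT_D are therefore not read as a result about cells after transfer. Why the label and the match differ was not tested.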

How the results depend on the processing

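Of 77 counts of collagens 2-fold apart recomputed under an alternative, 60 stayed within 1.5 times the reported count and 17 did not. Reporter-positive over CD44+ (19 as reported) gave 10 with means of log2(TPM + 1) in place of the log of means and 9 with only cells with Dsp. Reporter-positive over CD44-negative α6+ (5) gave 8 with a pseudocount of 0.1, 13 after rescaling TPM without spike-in, ribosomal and mitochondrial rows, and 8 without CSC2. CD44+ over CD44-negative α6+ (19) gave 3 with only cells with Dsp. CD44-negative α6+ over α6-negative (25) gave 16 with only cells with Dsp, and that count of 16 gave 7 with means of logs and 10 at the Dsp limit of 50 TPM. After transfer over reporter-positive (8) gave 13 after rescaling, 4 with means of logs, 3 without CSC1 and 4 with all 6 plates as labelled. After transfer over CD44-negative α6+ (3) gave 5 with the pseudocount, 6 after rescaling, 5 without OT_B and 8 with all 6 plates. Averaging the 3 pairs of near-identical wells within a plate gave 18 in place of 19 in the first comparison and left the other counts as they were. For the pseudocount, rescaling, means of logs, averaging and leaving out OT_B, the share over all genes was not computed. Nor was it for all 6 plates over CD44-negative α6+ cells. Rescaling also raises the remaining values, so more genes pass the filter on low values. These counts show dependence on the setting and are not results about collagens.

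Of 1057 recomputed log2 folds of named collagens, 917 stayed at least 2-fold in the same direction, 99 fell under 2-fold and 41 changed sign. With only cells with Dsp, the sign changed in reporter-positive over CD44+ for Col1a1 1.13, Col1a2 0.80, Col3a1 1.15, Col4a1 2.03, Col4a2 2.98, Col5a1 0.12, Col5a2 0.35, Col5a3 1.09, Col6a1 0.19, Col6a2 0.16, Col6a3 0.41, Col6a4 0.076, Col8a1 0.18, Col15a1 0.037, Col28a1 0.063, in CD44+ over CD44-negative α6+ for Col1a1 -0.59, Col1a2 -0.11, Col3a1 -1.21, Col4a2 -0.46, Col5a2 -0.027, Col5a3 -0.25, Col6a1 -0.014, Col6a2 -0.017, Col6a3 -0.27, Col15a1 -0.12, Col18a1 -0.29, and in CD44-negative α6+ over α6-negative for Col8a1 0.48, Col12a1 0.19. At the Dsp limit of 50 TPM it changed over α6-negative cells with Dsp for Col4a1 0.16, Col4a2 0.52, Col5a1 0.35, Col6a3 0.27, Col15a1 0.12, Col27a1 0.012. With means of logs it changed for Col4a2 0.31 (reporter-positive over CD44+) and for Col7a1 1.54, Col16a1 0.12 (CD44-negative α6+ over α6-negative), and with 5000 to 8000 genes a cell for Col28a1 0.11 (reporter-positive over CD44+). With all 6 plates it changed for Col3a1 0.45, Col4a1 0.22 (over reporter-positive) and Col3a1 0.39 (over CD44-negative α6+). The Dsp alternatives remove cells by construction; for the others the cause was not tested. Rescaling moved the median log2 fold of all genes by more than 0.1 in 4 comparisons, by the most in CD44-negative α6+ over α6-negative (-0.31 to -0.48) and reporter-positive over CD44+ (-0.03 to -0.20). At a detection limit of 5 TPM, 39 of 55 shares stayed inside the reported interval. With 12 CD44+ and 24 α6-negative cells left under the Dsp limits, shares there are known only roughly.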

Other observations

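Col2a1, the fibrillar chain of cartilage, has a mean below 1 TPM in every gate and was singled out here after its values were seen. Its transcript was found in 11 reporter-positive cells (10.5%, interval 5.35 to 18%), 6 on CSC1 and 5 on CSC2, at up to 6.26 TPM. It was detected in 0 of 91 CD44-negative α6+ cells, which allows a share of up to 3.3%, and in 0 of 43 α6-negative cells, 0 of 15 CD44+ cells and 1 cell after transfer. The limit is wider in the smaller gates. By detected genes, 7 of 36 reporter-positive cells with 8000 or more had it, and 4 of 58 with 6000 to 8000. The other gates had few cells with 8000 or more genes: 8 CD44-negative α6+, 3 α6-negative, 2 CD44+ and 9 after transfer. At 6000 to 8000 genes, 0 of 69 CD44-negative α6+ cells had it. The part of depth was not tested.

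Mcam, a gene of the pericyte list, was found in 46 reporter-positive and 6 CD44-negative α6+ cells, at means of 15.5 and 1.56 TPM, whereas Rgs5 of the same list was found in 2 and 3 cells.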
